A study of Mus musculus with 8 samples.

Results

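Il1rl1 encodes ST2, the receptor for the cytokine interleukin 33, and was followed here as 1 gene of 20388 across 8 RNA-seq libraries. It was chosen by its symbol, with its levels in these libraries already known, so its values are given as a description and carry no test. The cells were mouse embryonic stem cells with both copies of a floxed Htatsf1 allele and CreERT2, a recombinase that tamoxifen activates, growing on a layer of mouse embryonic fibroblasts (MEFs). The stem cells received tamoxifen, which deletes Htatsf1, or ethanol, the control, for 48 h or 72 h. All 4 groups carried the floxed allele, CreERT2 and the fibroblast layer, and each group held 2 libraries. The labels do not say whether the cells were 1 clone, what drives CreERT2, or whether replicate libraries stem from different cultures, and the p-values below reflect library-to-library spread that may be technical. Levels are FPKM (fragments scaled by transcript length and by library depth), and changes are differences of group means on the log2(FPKM + 1) scale, which understates the change of low genes.

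ST2 belongs to the interleukin 1 receptor family. Its membrane form binds interleukin 33, pairs with the accessory receptor Il1rap and passes the signal through MyD88, Irak kinases and Traf6 to NF-kappa-B and the JNK and p38 kinases, while a secreted form that lacks the membrane and signalling parts binds the cytokine without signalling. Mast cells, type 2 innate lymphoid cells and some T cells are known for the membrane form. In mouse fibroblasts the gene was first known as one that serum, growth factors and Fos switch on, mostly as the secreted form.

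The secreted and membrane forms part at 1 splice junction, and the letters around it are shown because the level of Il1rl1 in these files does not say which form was made. GENCODE and RefSeq list a shorter model of 2661 bases in 8 exons with 337 codons and a longer one of 5302 bases in 11 exons with 567 codons (GRCm38, plus strand). Both share the exon that ends at position 40446675 of chromosome 1. The last 30 shared bases are in lower case, and the 29 bases that follow in each model are in capitals.
shorter model: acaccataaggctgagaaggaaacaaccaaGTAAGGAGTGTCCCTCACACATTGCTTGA
longer model: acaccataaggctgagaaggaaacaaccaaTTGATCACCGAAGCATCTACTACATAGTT
In the shorter model the reading frame runs on past the junction and stops at the last codon shown, and in the longer one it goes on into the exons of the membrane span and signalling domain.

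RefSeq starts transcripts of the gene at 2 sites, 10059 bases apart. In mouse the distal start is known from mast cells and the proximal one from fibroblasts. The 250 bases before each start are shown because the deposited locus bears on one of them (GRCm38.p6, plus strand, chr1:40429320-40429569 for the distal and chr1:40439379-40439628 for the proximal start). Capitals mark matches to 4 motifs searched on both strands.
distal start: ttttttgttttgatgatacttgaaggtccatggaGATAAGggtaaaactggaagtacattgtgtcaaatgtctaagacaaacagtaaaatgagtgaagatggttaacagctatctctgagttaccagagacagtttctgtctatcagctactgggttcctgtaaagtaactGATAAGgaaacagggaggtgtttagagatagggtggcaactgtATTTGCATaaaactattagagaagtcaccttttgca
proximal start: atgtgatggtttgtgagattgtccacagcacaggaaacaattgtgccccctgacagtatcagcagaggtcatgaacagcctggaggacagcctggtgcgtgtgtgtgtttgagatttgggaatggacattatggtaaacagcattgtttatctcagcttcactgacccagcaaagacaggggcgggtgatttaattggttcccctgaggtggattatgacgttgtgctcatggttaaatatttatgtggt
The distal window held the GATA motif GATAAG at -216 and -79 and the octamer ATTTGCAT at -36, counted from the start. The proximal window held no match, and neither window held the AP-1 motif TGANTCA or the NF-kappa-B motif, GGGA and TTTCC with any base between. Of 32817 promoter windows in the RefSeq table, 6.55% held the GATA motif, 1.60% the octamer, 6.75% the AP-1 motif and 0.357% the NF-kappa-B motif. In the deposited files Il1rl1 lies on chromosome 1 from 40496494 to 40522259 of mm9. That locus spans 25766 bases, against 25787 bases from the proximal start to the gene's end in GRCm38 and 35846 bases from the distal start. The locus counted in these files thus has the span of a gene that begins at the proximal start, and fragments of a distal first exon would lie outside it.

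Deletion of the targeted gene was checked first. Htatsf1 had 4.13 and 3.78 FPKM in tamoxifen libraries and 23.0 and 21.7 FPKM in ethanol libraries at 48 h, and 4.12 and 4.63 FPKM in tamoxifen libraries and 22.8 and 22.7 FPKM in ethanol libraries at 72 h. Its log2 change was -2.24 ± 0.08 at 48 h and -2.14 ± 0.08 at 72 h (SE, limma adjusted p = 4.06e-07 and 1.56e-07). The fragments implied by the deposited intervals summed to 8.99 to 16.8 M a library. Markers of both cell types were present in every library, with Pou5f1, which encodes the pluripotency factor Oct4, at 472 to 655 FPKM and Col1a1, a chain of type I collagen made by fibroblasts, at 50.0 to 125 FPKM. In such mixed RNA, fewer cells of a type and less of a transcript per cell cannot be told apart. The names of the deposited tables differ between 48 h and 72 h in a numeric field that the labels do not explain, so time and whatever that field marks cannot be told apart.

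Il1rl1 was high in both tamoxifen groups and lowest in ethanol cultures at 72 h. Its levels were 33.8 FPKM (interval 31.5 to 36.1) and 30.02 FPKM (28.2 to 31.8) in the tamoxifen 48 h libraries, against 18.0 FPKM (16.6 to 19.5) and 18.1 FPKM (16.7 to 19.5) in the ethanol 48 h libraries. At 72 h they were 23.9 FPKM (22.5 to 25.4) and 26.1 FPKM (24.4 to 27.8) with tamoxifen, against 4.52 FPKM (3.75 to 5.30) and 4.93 FPKM (4.24 to 5.63) with ethanol. No library of 1 group overlapped those of another, and neither did the intervals. The intervals are those of the files and cover counting error only. They rest on 864 and 1115 implied fragments with tamoxifen at 48 h, 611 and 693 with ethanol at 48 h, 1123 and 950 with tamoxifen at 72 h, and 135 and 203 with ethanol at 72 h, so the lowest group is also the least precisely measured.

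**Figure D1:**
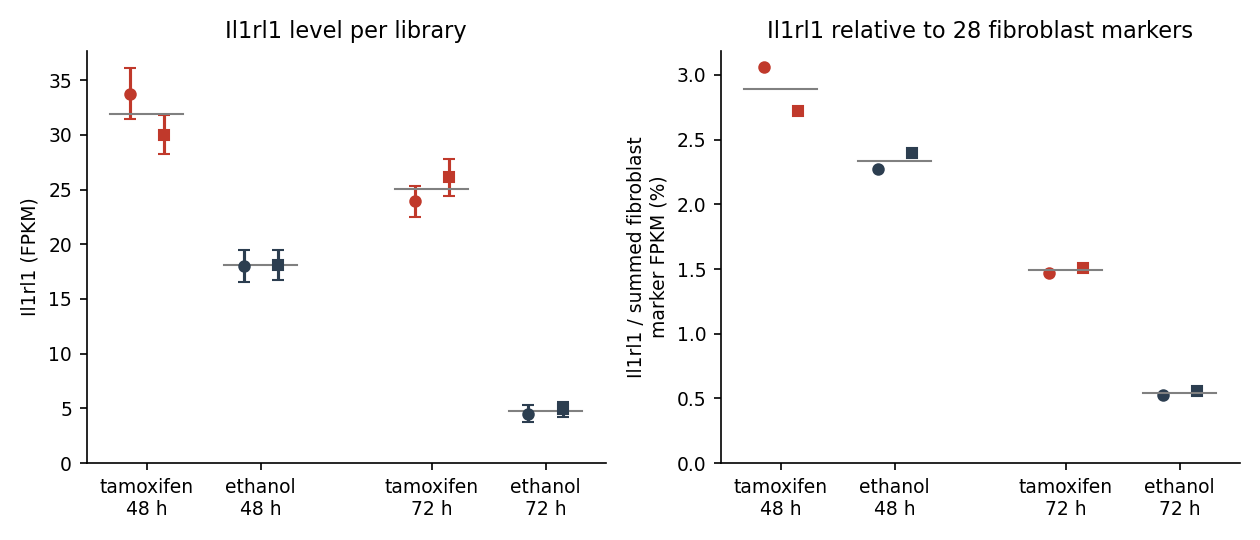
Il1rl1 in each library by treatment and time (circle, replicate 1; square, replicate 2; red, tamoxifen; dark, ethanol; grey line, group mean). The left panel gives FPKM with the deposited interval as the bar, and the right panel gives Il1rl1 as a percentage of the summed FPKM of 28 fibroblast markers; in both the ethanol 72 h libraries are lowest, at 4.52 and 4.93 FPKM and 0.53% and 0.56%.

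The group means were 31.9 ± 2.65 FPKM with tamoxifen and 18.1 ± 0.08 FPKM with ethanol at 48 h, and 25.04 ± 1.55 FPKM with tamoxifen and 4.73 ± 0.29 FPKM with ethanol at 72 h (SD, n = 2 each). In falling order the groups were tamoxifen 48 h, tamoxifen 72 h, ethanol 48 h and ethanol 72 h, and each neighbouring pair differed by more than the summed SDs. The mean with tamoxifen was 1.77 times that with ethanol at 48 h and 5.30 times at 72 h. These correspond to log2 changes of 0.78 ± 0.08 and 2.18 ± 0.08 (SE).

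Il1rl1 was lower at 72 h than at 48 h in both treatments, and by more in ethanol. From 48 h to 72 h the mean with ethanol fell to 0.262 of its 48 h level (log2 change -1.74 ± 0.08 SE), while the mean with tamoxifen at 72 h was 0.785 of that at 48 h (-0.34 ± 0.08 SE). The median gene moved by 0.11 in ethanol and 0.12 in tamoxifen over the same interval, and relative to those medians the log2 changes of Il1rl1 were -1.85 and -0.45. The log2 change of Il1rl1 with tamoxifen at 72 h exceeded that at 48 h by 1.4 ± 0.11 (SE).

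Among the 11867 genes tested, the tamoxifen change of Il1rl1 on the log2(FPKM + 1) scale ranked 40 from the highest at 48 h and 1 at 72 h. That scale understates the change of lower genes, and ranks on another scale were not taken. The difference between the 2 changes ranked 4 from the highest, and the change over time in ethanol ranked 6 from the lowest. The change over time in tamoxifen ranked 1386 from the lowest. These ranks describe why the gene stands out in the tables and are no test, since it was chosen with them in view. In the authors' deposited tables the mean of scaled counts for Il1rl1 was 1092 with tamoxifen and 608.7 with ethanol at 48 h, and 940 with tamoxifen and 188.9 with ethanol at 72 h. The log2 fold in the authors' deposited tables runs the other way, ethanol over tamoxifen, and was -0.84 at 48 h and -2.31 at 72 h. Among genes of similar profile described below, it was -0.85 and -2.27 for Fosl1. For Mcpt8 it was -0.578 and -1.94, and for Cd44 -0.647 and -1.46. On that scale the fold of Il1rl1 was thus close to that of Fosl1 at both times.

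The files give 1 FPKM value a gene and none for each form, but an FPKM value divides fragments by length, so the fragments behind 1 FPKM unit carry the length used. For Il1rl1 this was 25.6 and 37.1 fragments in the tamoxifen 48 h libraries, 33.9 and 38.2 in the ethanol 48 h libraries, 46.9 and 36.4 in the tamoxifen 72 h libraries, and 29.9 and 41.1 in the ethanol 72 h libraries. The differences follow library depth, so each was set beside genes with a single transcript model in the same library. Of 372 such genes within 5% of the shorter model's length, between 41.9% and 61.0% had fewer fragments per unit, which puts Il1rl1 inside their middle range in all 8 libraries. Of 268 genes within 5% of the longer model's length, 6.72% to 7.84% had fewer. The length behind the deposited Il1rl1 values was therefore close to that of the shorter, secreted model in both treatments and at both times. The deposited locus, by contrast, has the span of the longer model, since the shorter one ends at position 40448148 of GRCm38 and the longer one at 40465415. Which models the authors' annotation held for Il1rl1 was not examined here, and the comparison counts no junction fragments. Whether that length belongs to a single model or mixes several was not tested.

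**Figure D2:**
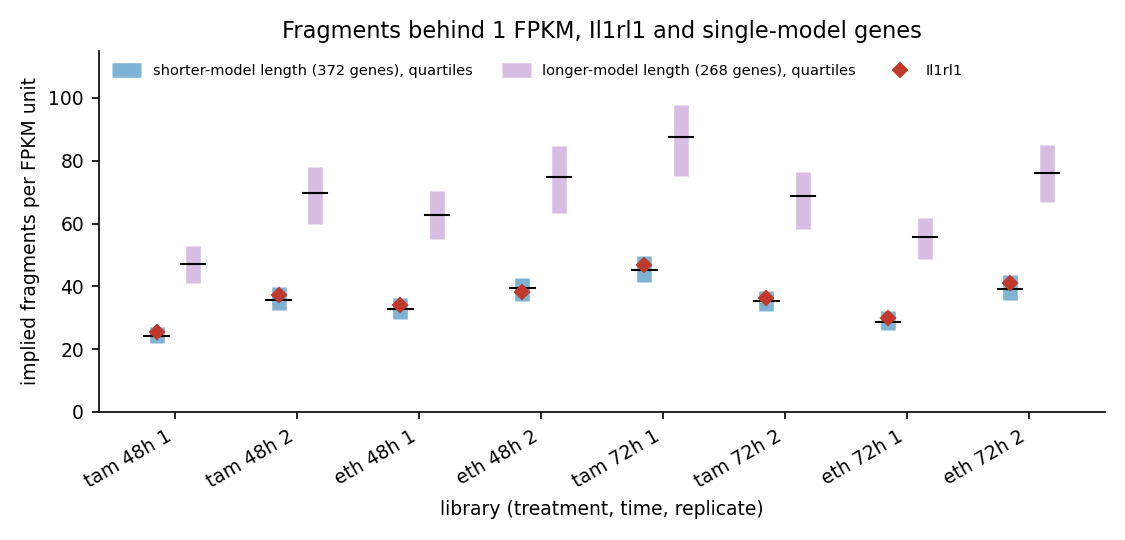
Implied fragments behind 1 FPKM unit in each library for Il1rl1 (diamonds), for 372 single-model genes of the shorter model's length (blue) and for 268 of the longer model's length (purple), with bars from the 25th to the 75th percentile and a line at the median. In all 8 libraries Il1rl1 lies inside the blue bar and below the purple one.

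The partner receptor Il1rap, without which ST2 does not signal, moved with tamoxifen in the same direction. Its gene lies on chromosome 16 from 26581791 to 26725233 of mm9, and it had 4.41 and 4.36 FPKM with tamoxifen and 2.73 and 2.55 FPKM with ethanol at 48 h, and 3.42 and 3.35 FPKM with tamoxifen and 1.57 and 1.67 FPKM with ethanol at 72 h. The tamoxifen libraries lay above the ethanol libraries at each time. Il1rap rose by 0.57 ± 0.09 at 48 h and 0.74 ± 0.09 at 72 h (SE, limma adjusted p = 0.00364 and 0.000156), against a background of 7.88% of all tested genes called higher at 48 h and 20.1% at 72 h. The 2 rises did not differ past the test (difference 0.18, adjusted p = 0.457). From 48 h to 72 h Il1rap fell in ethanol (-0.47 ± 0.09 SE, adjusted p = 0.00121; 19.2% of genes were called lower). In tamoxifen the change was -0.30 ± 0.09 (SE, adjusted p = 0.0167, where 19.6% of genes were called lower), and leaving out any 1 of the 4 tamoxifen libraries ended that call (adjusted p = 0.0534 to 0.0696).

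Per unit of Il1rap, the receptor was at 7.66 and 6.88 with tamoxifen and 6.60 and 7.10 with ethanol at 48 h, and at 6.99 and 7.79 with tamoxifen and 2.87 and 2.96 with ethanol at 72 h. This ratio of FPKM values was alike in 3 groups, which overlapped, and lower in the ethanol 72 h libraries.

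Il33, the cytokine that ST2 binds, was near the floor of the tested range. Its gene lies on chromosome 19 from 29999604 to 30035205, and it had 1.18 and 0.72 FPKM with tamoxifen and 1.05 and 1.66 FPKM with ethanol at 48 h, and 1.58 and 1.18 FPKM with tamoxifen and 0.82 and 0.72 FPKM with ethanol at 72 h, from 20 to 65 implied fragments a library. The 2 treatments overlapped at 48 h and not at 72 h. Il33 did not pass the limma test at 48 h (-0.27, adjusted p = 0.307) or at 72 h (0.42 ± 0.16 SE, adjusted p = 0.0627), nor did the difference between these (0.69, adjusted p = 0.122). Fitted on the 4 libraries of 72 h alone the change passed (adjusted p = 0.0412), and without tamoxifen 48 h replicate 2 it also did (adjusted p = 0.0493). Over time in ethanol it stood at -0.40 ± 0.16 (SE, adjusted p = 0.0549), which passed after median-ratio scaling (adjusted p = 0.03) or quantile normalization (0.00963). It also passed there without tamoxifen 48 h replicate 1 (adjusted p = 0.0429), tamoxifen 48 h replicate 2 (0.0422) or ethanol 48 h replicate 1 (0.0253). The authors' deposited table gives Il33 an adjusted p of 0.0152 at 72 h and 0.415 at 48 h.

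The other receptors of the family were low or moved little. Il1r1, the signalling receptor for interleukin 1 and a gene that lies before Il1rl1 on chromosome 1, had 1.06 and 1.09 FPKM with tamoxifen and 0.85 and 0.54 FPKM with ethanol at 48 h, and 1.96 and 1.90 FPKM with tamoxifen and 0.71 and 0.70 FPKM with ethanol at 72 h. Its highest libraries were those of tamoxifen at 72 h. It rose with tamoxifen at 72 h (0.78 ± 0.12 SE, limma adjusted p = 0.000683) and did not pass at 48 h (0.30, adjusted p = 0.136) or for the difference (0.48, adjusted p = 0.141). From 48 h to 72 h it rose in tamoxifen (0.50 ± 0.12 SE, adjusted p = 0.00491; 37.5% of all genes were called higher), a call that quantile normalization ended (0.26, adjusted p = 0.0874). In ethanol it stood at 0.02 over that interval (adjusted p = 0.921), and at -0.04 after median-ratio scaling, -0.17 after quantile normalization and -0.12 without ethanol 48 h replicate 2. Il1rl1, by contrast, was lower at 72 h than at 48 h in both treatments.

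Sigirr, a receptor of the family known to restrain signalling, had 5.23 and 5.45 FPKM with tamoxifen and 5.32 and 5.68 FPKM with ethanol at 48 h, and 7.09 and 7.16 FPKM with tamoxifen and 6.76 and 6.33 FPKM with ethanol at 72 h. It did not pass at 48 h (-0.04 ± 0.08 SE, adjusted p = 0.809) or at 72 h (0.11 ± 0.08 SE, adjusted p = 0.311). Il1rap, Il1r1 and Sigirr were the tested members among the other 9 receptors listed, of which 1 rose at 48 h and 2 rose at 72 h and 0 fell, beside 7.88% and 20.1% of all genes called higher. Il1r2, the decoy receptor for interleukin 1, Il1rl2, the receptor for interleukin 36, and Il18rap, the accessory chain of the interleukin 18 receptor, stayed under 1 FPKM in every library, Il1rapl1 reached 1 fragment in 1 library, and Il1rapl2 was listed at 0 in all 8.

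Il18r1, the chain of the interleukin 18 receptor that binds the cytokine, starts 137 bases after the end of Il1rl1 and was nearly silent. Its FPKM was 0.02 in tamoxifen 48 h replicate 1, 0.01 in tamoxifen 72 h replicate 1 and 0.02 in ethanol 72 h replicate 1, and it was listed at 0 in the other 5 libraries, with 3 implied fragments in all. It was too low to test. Of the other genes within 500 kb of Il1rl1, the exchangers Slc9a2 and Slc9a4 stayed under 0.1 FPKM, Tmem182 was listed at 0 throughout, and Mfsd9 had 0.39 to 1.36 FPKM. High Il1rl1 was thus not shared by its neighbours on the chromosome.

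**Figure D3:**
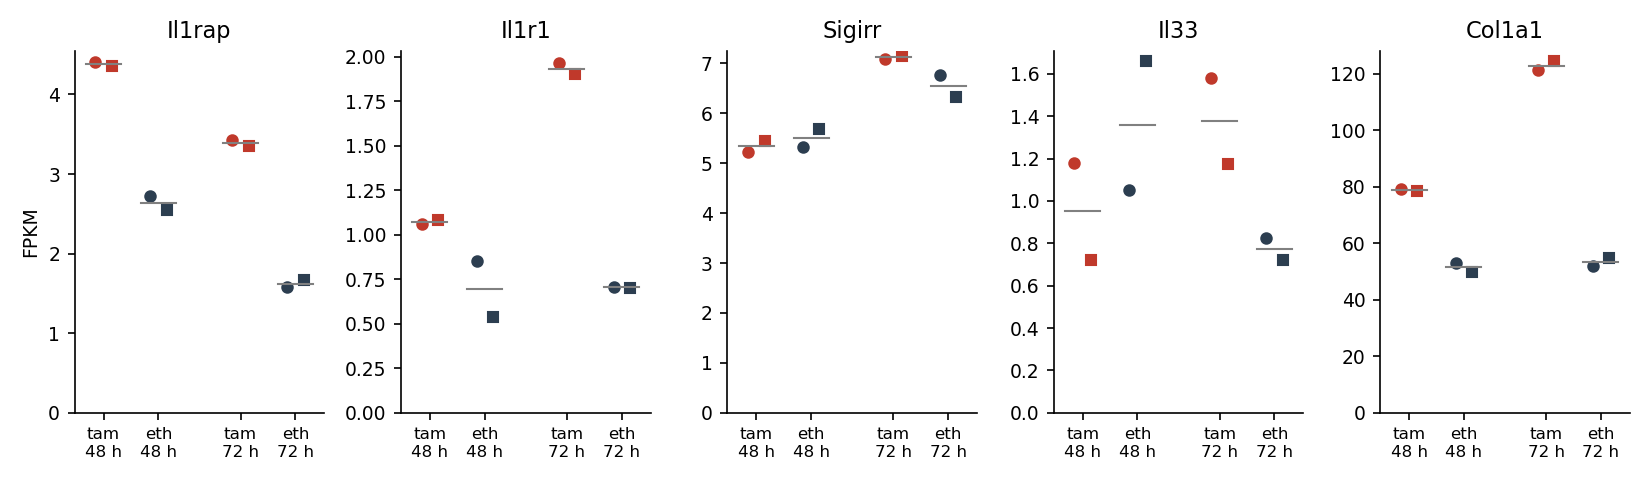
FPKM of the accessory receptor Il1rap, the interleukin 1 receptor Il1r1, the inhibitory receptor Sigirr, the ligand Il33 and the fibroblast collagen Col1a1 in each library (tam, tamoxifen, red; eth, ethanol, dark; circle, replicate 1; square, replicate 2; grey line, group mean). Il1rap is lowest in the ethanol 72 h libraries, at 1.57 and 1.67 FPKM, while Col1a1 stands at 51.8 and 54.8 FPKM there, beside 53.01 and 50.03 FPKM with ethanol at 48 h.

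Of 11 ligands and soluble inhibitors of the family, 2 passed the filter on low values, Il33 and Il18bp, the binding protein that blocks interleukin 18. With tamoxifen 0 of these 2 rose or fell at either time. Of all genes 7.88% were called higher and 4.47% lower at 48 h, and 20.1% and 18.5% at 72 h. A count of 0 among 2 tested genes is too small to set against those shares. Il18bp ranged from 0.41 to 1.12 FPKM and stood at 0.11 at 48 h (adjusted p = 0.72) and -0.27 at 72 h (adjusted p = 0.25). The interleukin 1 genes Il1a and Il1b, the receptor antagonist Il1rn, Il18 and the interleukin 36 gene Il1f9 stayed under 1 FPKM, and Il1f5, Il1f6, Il1f8 and Il1f10 were listed at 0. The messages for ligands of this family were therefore at or near the floor in cultures where the receptor reached 33.8 FPKM.

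Il1rl1 moved with the fibroblast markers between treatments. Over time it moved with only some of them in ethanol and with none of the tested ones in tamoxifen. Of 28 markers, 27 were tested, and 25 rose with tamoxifen at 48 h and 26 at 72 h, with 0 falling, beside 7.88% and 20.1% of all genes called higher. Their median log2 change was 0.56 at 48 h and 1.08 at 72 h, against medians of 0.02 and -0.01 over all genes tested. Their summed FPKM was 1105 and 1106 with tamoxifen and 792.2 and 755.9 with ethanol at 48 h, and 1624 and 1733 with tamoxifen and 853 and 881.1 with ethanol at 72 h. Over time in ethanol 6 markers rose and 7 fell (38.0% of all genes were called higher and 19.2% lower), with a median change of 0.05. Among those lower at 72 h, Dcn averaged 12.3 FPKM with ethanol at 48 h and 7.43 FPKM at 72 h, and S100a4 averaged 45.8 and 26.0 FPKM. Over time in tamoxifen 23 rose and 0 fell, with a median change of 0.45, beside 37.5% of all genes called higher and 19.6% lower.

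Col1a1, one of the markers that did not fall over time in ethanol, shows the contrast in single libraries. It had 79.4 and 78.7 FPKM with tamoxifen and 53.01 and 50.03 FPKM with ethanol at 48 h, and 121 and 125 FPKM with tamoxifen and 51.8 and 54.8 FPKM with ethanol at 72 h. It rose with tamoxifen by 0.61 ± 0.05 at 48 h and 1.19 ± 0.05 at 72 h (SE, limma adjusted p = 0.000181 and 5.76e-07), and these rises differed (0.58, adjusted p = 0.00727; 2% of all genes were called for a larger change at 72 h and 1.45% for a smaller one). In ethanol its change over time was 0.05 (adjusted p = 0.473), which was -0.08 after median-ratio scaling, and in tamoxifen it rose by 0.63 (adjusted p = 1.17e-05). Acta2, smooth muscle actin, averaged 105 ± 0.80 FPKM with tamoxifen and 36.3 ± 2.37 FPKM with ethanol at 72 h, and Thbs1, which encodes thrombospondin 1, averaged 275 ± 10.4 and 132 ± 3.81 FPKM in those groups (SD, n = 2 each).

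Set against the summed FPKM of the fibroblast markers, part of the treatment difference in Il1rl1 remained. How much remains depends on the marker used. The log2 change with tamoxifen was 0.73 at 48 h and 1.43 at 72 h for Dcn, and 0.20 and 0.16 for Fn1. For Il1rl1 it was 0.78 and 2.18. As a percentage of the summed fibroblast FPKM, Il1rl1 was 3.06% and 2.72% with tamoxifen and 2.27% and 2.40% with ethanol at 48 h, and 1.47% and 1.51% with tamoxifen and 0.53% and 0.56% with ethanol at 72 h. The groups did not overlap on this scale either, and their order changed, with both 48 h groups above both 72 h groups. The ratio of tamoxifen to ethanol means was 1.24 at 48 h and 2.73 at 72 h, against 1.77 and 5.30 in FPKM. Over time the share fell to 0.233 of its 48 h mean in ethanol and to 0.516 in tamoxifen.

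Per 100 FPKM of Col1a1, Il1rl1 stood at 42.5 and 38.2 with tamoxifen and 34.0 and 36.2 with ethanol at 48 h, and at 19.7 and 21.0 with tamoxifen and 8.73 and 9.0 with ethanol at 72 h. On this scale the ratio of tamoxifen to ethanol means was 1.15 at 48 h and 2.30 at 72 h. Of the 28 markers, 10 and 10 stood above Il1rl1 in the tamoxifen 48 h libraries and 12 and 11 in the ethanol 48 h libraries, against 14 and 14 with tamoxifen and 21 and 21 with ethanol at 72 h. The part of the fibroblast share in the level of Il1rl1 was not tested.

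Most markers of the blood cells best known for ST2 were near 0. Kit and, outside the ethanol 72 h libraries, Mcpt8 stood higher, while Gata2, at 0.87 to 1.83 FPKM, was near the floor of the tested range. Of 11 mast cell and basophil markers, 8 stayed under 1 FPKM in all libraries, and Fcer1a, a chain of the IgE receptor, and the tryptases Tpsb2 and Tpsab1 were listed at 0 throughout. The list summed to 12.9 and 13.5 FPKM with tamoxifen and 10.1 and 9.50 FPKM with ethanol at 48 h, and 15.5 and 15.3 FPKM with tamoxifen and 9.98 and 9.48 FPKM with ethanol at 72 h, nearly all of it from Mcpt8, Kit and Gata2, of which Kit and Gata2 are not specific to mast cells. In the ethanol 72 h libraries that sum exceeded the level of Il1rl1. Of these 3 tested genes 1, Mcpt8, rose with tamoxifen at 48 h and 2, Mcpt8 and Gata2, at 72 h, with 0 falling, beside 7.88% and 20.1% of all genes called higher. Gata2 stood at 0.37 ± 0.12 at 72 h (SE, limma adjusted p = 0.0363), a call that ended after quantile normalization (adjusted p = 0.109), on the 4 libraries of 72 h alone (0.0583), and without tamoxifen 72 h replicate 1 (0.183) or ethanol 72 h replicate 2 (0.205). The 48 h count was 0 without any 1 of the 4 libraries of 48 h. The part of these cells in the level of Il1rl1 was not tested. Of 13 lymphocyte and innate lymphoid markers 0 passed the filter, and they summed to 1.11 to 2.92 FPKM in all libraries. That lymphocyte sum is below the Il1rl1 level of every library, but FPKM values of unlike genes do not bound what a few cells supply. The part of lymphoid cells in the level of Il1rl1 was not tested either.

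Some macrophage markers were present at low level and moved with treatment. The 8 listed genes summed to 33.3 and 26.4 FPKM with tamoxifen and 20.3 and 20.8 FPKM with ethanol at 48 h, and 34.5 and 41.7 FPKM with tamoxifen and 15.8 and 14.98 FPKM with ethanol at 72 h. Most of each sum was Lyz2, at 23.2 and 18.3 FPKM with tamoxifen and 14.0 and 14.8 FPKM with ethanol at 48 h. At 72 h Lyz2 had 25.1 and 30.7 FPKM with tamoxifen and 11.2 and 10.0 FPKM with ethanol. Csf1r, Itgam and Aif1 stayed under 1 FPKM in every library. Of 5 tested, 3 rose at 48 h and 4 at 72 h, with 0 falling, beside 7.88% and 20.1% of all genes called higher, led at 72 h by Lyz2, a lysozyme (1.31 ± 0.12 SE, limma adjusted p = 2.36e-05), and Emr1, a surface receptor of macrophages (0.93 ± 0.12 SE, adjusted p = 0.000267). The 48 h count was 0 without tamoxifen 48 h replicate 1, ethanol 48 h replicate 1 or ethanol 48 h replicate 2. Endothelial markers summed to 18.1 to 23.1 FPKM, most of it Pecam1, which embryonic stem cells also make. Flt1, a receptor for vascular endothelial growth factor, rose at 72 h (0.68 ± 0.10 SE, adjusted p = 0.000588), as did Tek (0.67 ± 0.11 SE, adjusted p = 0.00132), and Vwf fell (-0.54 ± 0.11 SE, adjusted p = 0.00379).

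Of 14 pluripotency markers tested, 0 rose and 8 fell with tamoxifen at 72 h, beside 18.5% of all genes called lower. At 48 h 0 rose and 1, Tdgf1, fell (-0.21, limma adjusted p = 0.0464; 4.47% of all genes were called lower), a count that was 0 without any 1 of the 4 libraries of 48 h or either ethanol 72 h library. Their 15 genes summed to 3318 and 3221 FPKM with tamoxifen and 3432 and 3362 FPKM with ethanol at 48 h, and 3513 and 3980 FPKM with tamoxifen and 4593 and 4444 FPKM with ethanol at 72 h. The member not tested, Sox2, was listed at 0 in every library and adds nothing to these sums. Why it was listed at 0 was not examined. Nr5a2, a nuclear receptor, fell by 0.93 on the log2 scale (SE 0.10, limma adjusted p = 6.11e-05), and Fbxo15 and Klf2 fell by 0.65 and 0.56 (adjusted p = 6.27e-05 and 7.22e-05). Pou5f1 stood at 0.10 (adjusted p = 0.181) and did not pass. The tamoxifen sums lay below the ethanol sums at both times, by more at 72 h. At 72 h the sums rest largely on Dppa5a, which averaged 1938 ± 289 FPKM with tamoxifen and 2516 ± 77.6 FPKM with ethanol (SD, n = 2 each). Pou5f1 averaged 524 FPKM with tamoxifen and 489 FPKM with ethanol there, and Utf1 421 and 391 FPKM. The part of the number of stem cells in the level of Il1rl1 was not tested.

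The genes that carry the ST2 signal inside the cell showed few changes. Of 22 tested genes of the MyD88 branch, 1 rose and 0 fell with tamoxifen at 48 h, and 2 rose and 3 fell at 72 h (at 48 h 7.88% of all genes were called higher and 4.47% lower, and at 72 h 20.1% and 18.5%), with median changes of 0.06 and 0.05. Traf6, the ubiquitin ligase of the branch, stood at 0.28 ± 0.08 at 48 h (SE, limma adjusted p = 0.0454), a call that leaving out any 1 of the 8 libraries ended, and at 0.35 ± 0.08 at 72 h (SE, adjusted p = 0.00646). Nfkb1, an NF-kappa-B subunit, was higher at 72 h (0.29 ± 0.07 SE, adjusted p = 0.0115), and Ikbkb, the kinase that releases NF-kappa-B, was lower (-0.39 ± 0.09 SE, adjusted p = 0.00586). Without ethanol 72 h replicate 2 these 3 calls at 72 h ended (adjusted p = 0.051, 0.054 and 0.0534), and without tamoxifen 72 h replicate 2 that of Nfkb1 did (adjusted p = 0.0796). The other 2 that fell were Tab3 and Tmed1, and without ethanol 72 h replicate 2 the count of falls was 0. Myd88 itself stood at 0.12 at 48 h (adjusted p = 0.473) and 0.17 at 72 h (adjusted p = 0.229).

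Genes that NF-kappa-B is known to induce were often higher with tamoxifen. Of 16 tested, 9 rose and 0 fell at 48 h, and 12 rose and 1, Bcl3, fell at 72 h, with median changes of 0.35 and 0.82. Of all genes 7.88% were called higher and 4.47% lower at 48 h, and 20.1% and 18.5% at 72 h. Csf1, the macrophage growth factor, averaged 43.0 ± 1.61 FPKM with tamoxifen and 28.8 ± 1.33 FPKM with ethanol at 48 h, and 55.7 ± 0.86 FPKM with tamoxifen and 24.1 ± 0.11 FPKM with ethanol at 72 h (SD, n = 2 each), a rise of 1.18 ± 0.06 at 72 h (SE, limma adjusted p = 9e-07). Ptgs2, the inducible cyclooxygenase, rose by 1.28 ± 0.07 (SE, adjusted p = 9.71e-07), and Cxcl5, a neutrophil chemokine, by 1.53 ± 0.12 (SE, adjusted p = 1.01e-05). From 48 h to 72 h in ethanol 3 of the 16 rose, Nfkbia (0.90), Relb (0.67) and Lif (0.45), and 5 fell, Ccl2, Ccl7, Csf1, Cxcl5 and Ptgs2 (-0.60 for Ptgs2, adjusted p = 4.28e-05), beside 38.0% of all genes called higher and 19.2% lower. The 48 h count was 5 without tamoxifen 48 h replicate 1, 5 without ethanol 48 h replicate 1 and 4 without ethanol 48 h replicate 2. Fibroblasts make many of these gene products, and the fibroblast markers rose in the same libraries. The part of the fibroblast share in these rises was not tested.

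Genes of the serum and AP-1 response, of which Il1rl1 is one in mouse fibroblasts, included Fosl1, one of the 5 genes nearest to it over the 8 libraries. Of 27 tested, 15 rose and 0 fell with tamoxifen at 48 h, and 19 rose and 1, Klf4, fell at 72 h, with medians of 0.28 and 0.56. The shares of all genes called higher and lower were 7.88% and 4.47% at 48 h, and 20.1% and 18.5% at 72 h. In ethanol 5 rose and 11 fell from 48 h to 72 h, beside 38.0% of all genes called higher and 19.2% lower. Fosl1, whose values are given below with the nearest profiles, had the lowest level in the ethanol 72 h libraries. With ethanol it averaged 4.27 FPKM at 48 h and 1.65 FPKM at 72 h. Most other AP-1 subunits did not share a fall of that size. Those means were 0.94 and 1.07 for Fos, 10.4 and 9.49 for Jun, 35.2 and 30.3 for Junb, 48.1 and 53.7 for Jund, and 3.53 and 3.41 for Fosl2. Fosb, under 1 FPKM in every library, averaged 0.42 and 0.20. Btg2, a growth-restraining gene that p53 also induces, rose with tamoxifen (1.04 and 1.37, adjusted p = 8.8e-05 and 2.84e-06) but also rose over time in ethanol (0.86, adjusted p = 1.96e-05). The 48 h count of the list was 8 without ethanol 48 h replicate 1 and 7 without ethanol 48 h replicate 2.

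**Figure D4:**
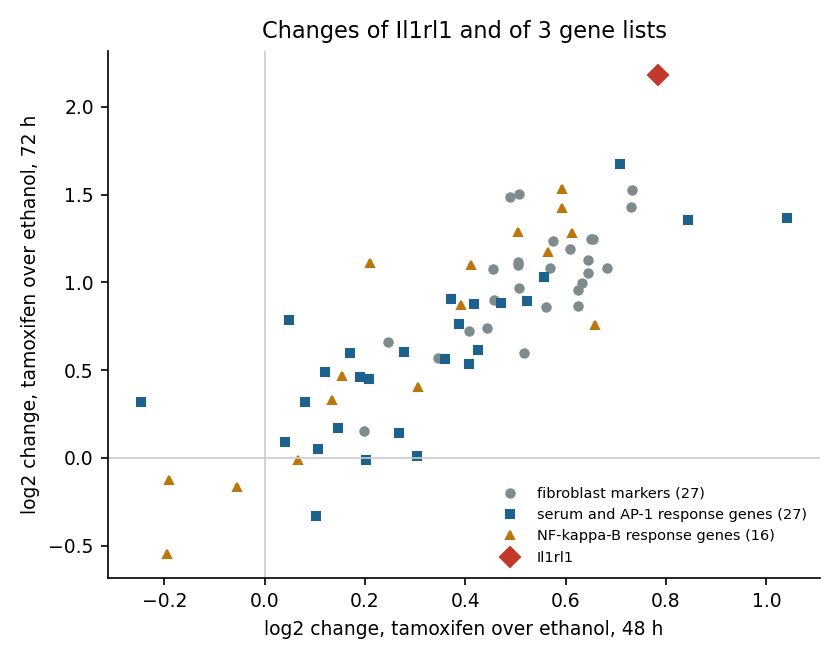
Log2 change with tamoxifen over ethanol at 48 h (horizontal) and at 72 h (vertical) for the tested members of 3 gene lists and for Il1rl1 (diamond). On this log2(FPKM + 1) scale Il1rl1, at 0.78 and 2.18, lies above every listed gene on the vertical axis. The fibroblast markers (circles) reach 0.73 at 48 h and 1.53 at 72 h.

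Targets of p53 also rose, 21 of 28 tested at 48 h and 22 at 72 h with 0 falling, with medians of 0.44 and 0.59, beside 7.88% and 20.1% of all genes called higher. Mdm2, which limits p53, averaged 234 ± 0.01 FPKM with tamoxifen and 57.9 ± 3.10 FPKM with ethanol at 72 h (SD, n = 2 each; 2.00 ± 0.06 SE, limma adjusted p = 7.74e-08), and Plk2 and Cdkn1a rose by 1.58 and 1.31. They did not share the course of Il1rl1 over time, since Cdkn1a stood at 0.43 and Mdm2 at 0.24 in ethanol at 72 h against 48 h.

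The genes whose profile lay nearest to that of Il1rl1 were found over the 8 libraries, as a description with no test, since 8 libraries in 4 groups share treatment and time. Pearson r of log2(FPKM + 1) was highest for Cd44, the hyaluronan receptor (0.995), and for Emp1, a membrane protein (0.995). They were followed by Pgrmc1 (0.992), Slc39a14, a zinc transporter (0.991), Mcl1, which opposes cell death (0.990), Fst, the activin antagonist follistatin (0.989), Cdh11, a cadherin of mesenchymal cells (0.988), and Enc1 (0.987). In all, 289 genes had an r of at least 0.9. A high r does not mean a change of like size: Mcl1 averaged 225 ± 1.99 FPKM with tamoxifen and 172 ± 7.49 FPKM with ethanol at 72 h (SD, n = 2 each).

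Distance, which counts size too, was smallest for Cd44 (0.84), Mcpt8 (0.86), Tm4sf1 (0.95), Fosl1 (1.15) and Inhba (1.20), on the log2 scale with each gene centred on its ethanol 48 h mean. Cd44 had 47.4 and 44.9 FPKM with tamoxifen and 29.7 and 30.7 FPKM with ethanol at 48 h, and 34.6 and 35.8 FPKM with tamoxifen and 11.4 and 13.4 FPKM with ethanol at 72 h. Fosl1, which encodes the AP-1 subunit Fra-1, had 7.11 and 8.15 FPKM with tamoxifen and 4.17 and 4.38 FPKM with ethanol at 48 h, and 7.13 and 7.82 FPKM with tamoxifen and 1.79 and 1.52 FPKM with ethanol at 72 h. Both had the ethanol 72 h libraries lowest without overlap, as Il1rl1 did, which the choice by distance favours.

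Mcpt8, a basophil protease, had 8.36 and 8.50 FPKM with tamoxifen and 6.20 and 5.603 FPKM with ethanol at 48 h, and 5.91 and 6.19 FPKM with tamoxifen and 1.27 and 1.70 FPKM with ethanol at 72 h, in cultures whose other mast cell and basophil markers apart from Kit and Gata2 stayed under 1 FPKM. Tm4sf1, a tetraspanin-like membrane protein, averaged 13.6 ± 1.52 FPKM with tamoxifen and 4.57 ± 0.39 FPKM with ethanol at 72 h (SD, n = 2 each). Inhba, which encodes a subunit of activin, had 24.8 and 25.2 FPKM with tamoxifen and 11.2 and 12.4 FPKM with ethanol at 72 h. In these 5 genes, as in Il1rl1, the lowest group was ethanol at 72 h. They were picked for likeness to Il1rl1 over the same libraries, so this shared feature follows from the choice. Among the context genes, r with Il1rl1 was 0.963 for Il1rap, which ranked 57, and 0.609 for Col1a1, 0.546 for Il1r1 and 0.466 for Il33.

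**Figure D5:**
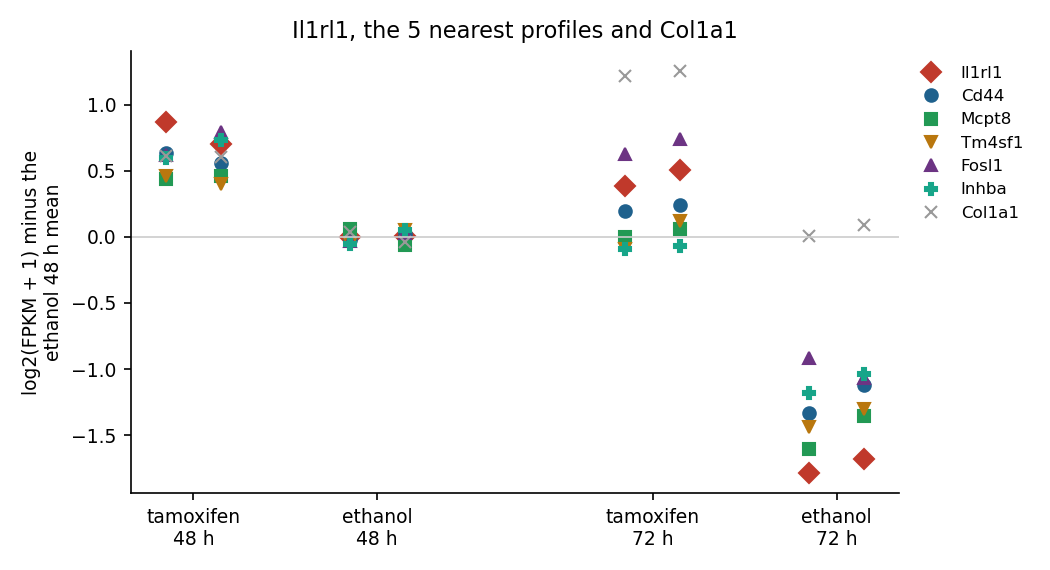
Level of Il1rl1 (red diamonds), of the 5 genes at the smallest distance from it and of Col1a1 (grey crosses) in each library, as log2(FPKM + 1) minus the mean of the 2 ethanol 48 h libraries. Il1rl1 and the 5 genes, picked for likeness to it, are lowest in the ethanol 72 h libraries, where Col1a1 stays near its ethanol 48 h level.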

How the data were processed

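Polyadenylated RNA was sequenced as paired ends, per the labels' protocols, and groups came from the labels. The authors deposited FPKM per gene with an interval for each of 8 libraries. Build mm9 and the programs DESeq, HTSeq, Cufflinks 1.3.0, TopHat 1.4.1 and BWA 0.6.1 are named per the submitters' processing notes, with no roles, and no versions for DESeq and HTSeq, in the sources used here. Per the file headers, 2 tables of comparisons hold pooled group means, a signal made of size-factor scaled counts, with fold ratios, log2 fold changes and p-values, all as deposited by the authors and only described.

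Of 20461 identifiers, 20388 were kept (status OK in all libraries, entry of highest mean FPKM where listed more than once). Positions are those of the files plus 1 at the start. limma 3.58.1 (R 4.3.3) was fitted to log2(FPKM + 1) of 11867 genes that reached an FPKM of 1 in 2 or more libraries, with 1 mean a group, 4 residual degrees of freedom, a mean trend, two-sided tests and Benjamini-Hochberg adjustment over all genes tested, called at 0.05. The fit was tested on simulated data. Fragments were implied by taking the distance from a value to its upper bound as 2 Poisson SDs; for single-model genes with up to 20 fragments 97.8% to 98.1% were whole within 0.02.

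Il1rl1, the gene lists and the tests were chosen with earlier results of these data known. Named genes were the IL-1 receptor family and ligands, neighbours within 500 kb, the 3 members of smallest p at 72 h in each other list, the 8 genes of highest r and the 5 of smallest distance, and Htatsf1; other genes were named after their values were seen. One gene that this rule names is not reported here. Alternatives were pseudocounts of 0.1 and 5, no filter, 2 scalings, no trend, summed entries, the libraries of 1 time, a replicate block and leaving out each library.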

Additional observations from a re-analysis of the deposited data

Results flagged for a closer look

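The tamoxifen change of Col1a1 differed between the 2 times by the test of the difference itself. The 72 h change was larger by 0.583 on the log2 scale (limma adjusted p = 0.00727), with 121 and 125 FPKM with tamoxifen and 51.8 and 54.8 FPKM with ethanol at 72 h, and 79.4 and 78.7 FPKM with tamoxifen and 53.01 and 50.03 FPKM with ethanol at 48 h. The 28 fibroblast markers, of which it is one, had a median change of 1.08 at 72 h and 0.56 at 48 h in the same libraries. With the replicate block the difference kept its call (0.583, adjusted p = 0.0198). The part of the number of fibroblasts in it was not tested.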

How the results depend on the processing

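Il1rl1 kept its direction in all 5 comparisons under every alternative run. With a pseudocount of 5 its log2 changes were 0.676 at 48 h, 1.63 at 72 h, 0.95 for the difference and -1.25 over time in ethanol; with 0.1 they were 2.38 at 72 h, 1.57 for the difference and -1.91 in ethanol. Quantile normalization gave 1.53 for the difference and -1.88 in ethanol, and median-ratio scaling gave -1.85 in ethanol and -0.452 in tamoxifen over time. Leaving out 1 library gave 0.702 to 0.867 at 48 h, 2.12 to 2.24 at 72 h, 1.32 to 1.48 for the difference, -1.79 to -1.68 in ethanol and -0.418 to -0.254 in tamoxifen. The causes were not tested.

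Il33 passed at 72 h on the 4 libraries of that time (0.42) and over time in ethanol after median-ratio scaling (-0.468) or quantile normalization (-0.611), and leaving out 1 library gave 0.296 to 0.543 and -0.587 to -0.213. Il1r1 over time in ethanol was -0.0373 and -0.17 after these scalings and -0.12 to 0.151 with 1 library out, and in tamoxifen 0.259 after quantile normalization. Col1a1 over time in ethanol was -0.0795 after median-ratio scaling. Il1rap over time in tamoxifen was -0.306 to -0.284 with 1 library out. At 48 h Sigirr was -0.075 to 0.00424 and Il18bp -0.0402 to 0.267 with 1 library out.

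Without the filter on low values 308 genes fell at 48 h, 31 rose and 13 fell for the difference, and at 48 h 5 NF-kappa-B genes, 0 MyD88 branch genes and 0 macrophage markers rose. Without the trend 148 rose and 78 fell for the difference. At 48 h 0 MyD88 branch genes rose under either scaling or on the 4 libraries, and 1 macrophage marker rose after quantile normalization or on the 4 libraries. At 72 h 1 p53 target fell with a pseudocount of 5 or either scaling, 4 MyD88 branch genes rose with a pseudocount of 5 and 5 fell after quantile normalization. Of mast cell and basophil markers 0 rose at 48 h without the filter on low values, and 1 rose at 72 h after quantile normalization or on the 4 libraries. Of pluripotency markers at 48 h 0 fell without the filter, after quantile normalization, without the trend or with the replicate block, and 2 on the 4 libraries. In ethanol over time 3 AP-1 genes rose after median-ratio scaling.

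With 1 library left out, the genes that rose and fell at 48 h numbered 319 to 961 and 121 to 622, the genes that fell at 72 h 1460 to 2172, and those for the difference 37 to 160 and 13 to 100. At 48 h the counts that rose were 4 to 9 for NF-kappa-B, 7 to 15 for AP-1, 0 for the MyD88 branch and 0 to 3 for macrophages, and at 72 h 1 to 2 MyD88 branch genes rose, 0 to 3 fell, and 0 to 1 p53 targets fell. Of mast cell and basophil markers 0 to 1 rose at 48 h and 1 to 2 at 72 h, and of pluripotency markers 0 to 1 fell at 48 h and 7 to 9 at 72 h.

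Same-numbered libraries did not deviate together (correlation of deviations -0.276 to 0.145 over 6 pairs of groups). With the replicate block 108 genes fell for the difference, and at 48 h 0 MyD88 branch genes and 1 macrophage marker rose; Il1rl1 was 0.785 at 48 h and 2.18 at 72 h, and no call of a context gene changed. Depth limits the low family members, with at most 65 implied fragments a library for Il33, 21 for Il18bp and 1 for Il18r1.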
